A study of Homo sapiens with 4 samples.

Results

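The S100 genes encode small calcium-binding proteins, and 10 of them were followed through the RNA-seq libraries of 2 triple-negative breast cancer (TNBC) cell lines treated with mebendazole (MBZ). The members were S100A2, S100A4, S100A6, S100A7, S100A8, S100A9, S100A10, S100A11, S100A14 and S100P, chosen by gene symbol, and each matched 1 Ensembl identifier among the 58735 genes of the table. The table lists 21 S100 genes in all, and the other 11 are given for comparison.

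MBZ is an anthelmintic drug that binds tubulin and disturbs microtubules. MDA-MB-231, obtained from a cell repository, and SUM159, a gift from another laboratory, are established human TNBC lines. Each line was given 1 μM MBZ or the DMSO vehicle alone (0 μM MBZ) for 72 h, no genetic change is named for either, and 1 library was sequenced for each of the 4 conditions. The study asked how MBZ alters gene expression in TNBC cells. Per the study's methods, MDA-MB-231 cells were kept in DMEM and SUM159 cells in Ham's F12 with other supplements, so that line and medium cannot be told apart.

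S100 proteins carry a pair of EF-hand motifs, helix-loop-helix folds that hold calcium. On binding calcium, most of them open a surface that grips a partner such as an annexin or a myosin, and several are also released from cells and bind receptors such as RAGE and TLR4. S100A4 and S100A6 are widely expressed in mesenchymal and tumor cells, whereas S100A8 and S100A9 are known above all from neutrophils and monocytes, and S100A2, S100A7 and S100A14 from epithelia.

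The libraries held between 17143139 and 24897586 counted reads. Of the receptors that define TNBC by their absence, PGR had 0 reads in all 4 libraries, ESR1 between 0 and 18, and ERBB2 between 1216 and 1996. VIM, the mesenchymal intermediate filament, had between 20703 and 54409 reads and CDH1, the epithelial cadherin, between 0 and 12. KRT19 set the lines apart, with 12386 reads in MDA-MB-231 under DMSO and 6608 under MBZ, against 1 and 13 in SUM159.

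Per unit of transcript length, S100A6 was the most abundant member in every library. Levels between genes are given as RPKM, that is, reads scaled to the size of the library and to the kb of merged exon, after TMM normalization over the 4 libraries. S100A6 stood at 5272 RPKM in MDA-MB-231 with DMSO, 3483 with MBZ, 1229 in SUM159 with DMSO and 2030 with MBZ. It alone made up between 54.2% and 67.8% of the summed RPKM of the 10 members. S100A4 came next in MDA-MB-231, at 1137 RPKM with DMSO and 664 with MBZ, followed by S100A10 at 703 and 375 and S100A11 at 653 and 523. In SUM159 S100A4 was at 406 RPKM with DMSO and 302 with MBZ, S100A11 at 390 and 557, and S100A10 at 165 and 262. The 4 genes thus kept clear of all other members in both lines, but their order among themselves below S100A6 differed between libraries, and with 1 library per condition there is no replicate spread by which close neighbours such as S100A4 and S100A11 in SUM159 with DMSO could be separated.

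The remaining members were lower and differed more between the lines. S100A2 was at 85.6 and 80.2 RPKM in MDA-MB-231 with DMSO and MBZ, against 3.51 and 11.8 in SUM159. S100A9 was listed at 0 in MDA-MB-231 and at 55.1 and 29.9 RPKM in SUM159, and S100A8 at 0 and at 10.2 and 3.65. S100P lay between 6.21 and 12.04 RPKM, S100A14 between 0.135 and 1.37, and S100A7 at 0 in MDA-MB-231 and at 0.124 and 0.698 in SUM159. The 10 members took 0.697% of all reads in MDA-MB-231 with DMSO and 0.539% with MBZ, and 0.181% and 0.320% in SUM159.

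**Figure D1:**
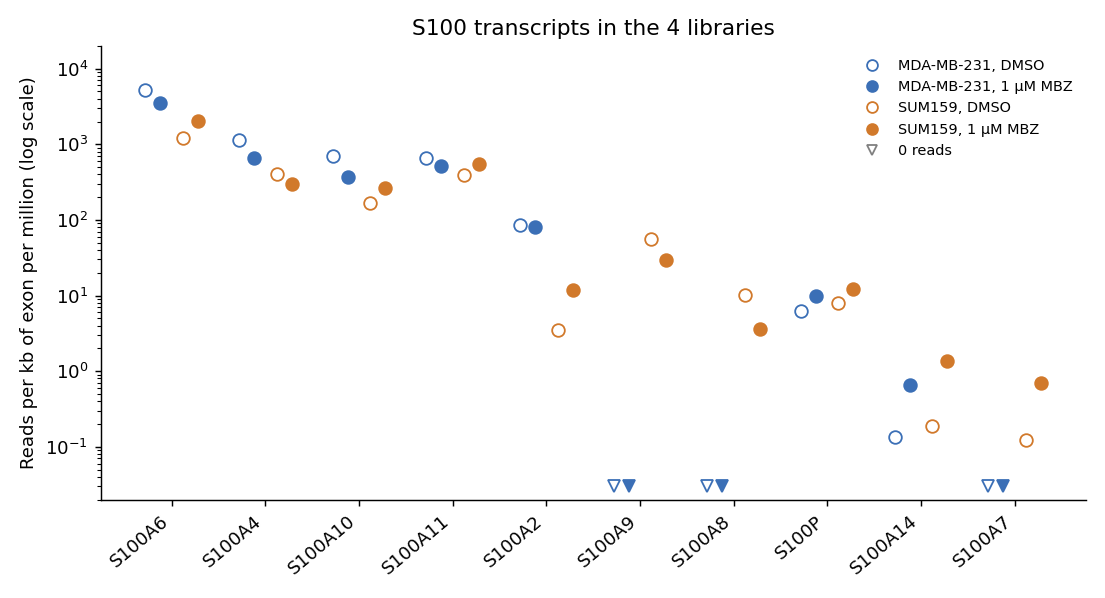
Levels of the 10 S100 members on a log scale in RPKM, 1 point per library, open for DMSO and filled for 1 μM MBZ, blue for MDA-MB-231 and orange for SUM159. S100A6 is highest in each library, from 1229 to 5272, and the triangles at the bottom mark S100A9, S100A8 and S100A7, which had 0 reads in both MDA-MB-231 libraries.

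Changes after MBZ were read within each line, as the log2 ratio of the MBZ to the DMSO library in CPM (reads scaled to the size of the library) after TMM normalization over the pair. A member was counted as higher or lower when the ratio reached 1.5-fold and the mean of the pair was at least 10 reads. Intervals are 95% Clopper-Pearson intervals and cover counting error only, since reads amplified by PCR and lacking molecular identifiers are not independent, and no difference between single libraries has a replicate check. RNA from whole cultures also cannot tell fewer cells of a type from less RNA per cell. In MDA-MB-231, 7 of the 10 members had enough reads to be compared, and 2 were higher and 3 lower with MBZ, and their median on the log2 scale was -0.34. Among all 15142 genes compared in that line, 18.3% were higher and 15.8% lower, with a median of -0.02. In SUM159, 9 members were compared, of which 5 were higher and 2 lower, with a median of 0.60. Among all 15674 genes compared there, 21.5% were higher and 21.7% lower, and their median was -0.03. In MDA-MB-231 the members called lower thus outnumbered those called higher by 1 gene.

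That order in MDA-MB-231 turned with the scaling. When reads were scaled by library totals alone, the median of all genes moved up by 0.27 in MDA-MB-231 and by 0.30 in SUM159, and the members then split into 2 higher and 1 lower in MDA-MB-231 and 6 higher and 1 lower in SUM159. S100P in both lines and S100A6 in MDA-MB-231 lay close to the 1.5-fold limit. With DESeq2 size factors S100P in SUM159 fell just under it, at a log2 value of 0.580, and 4 members were higher there.

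**Figure D2:**
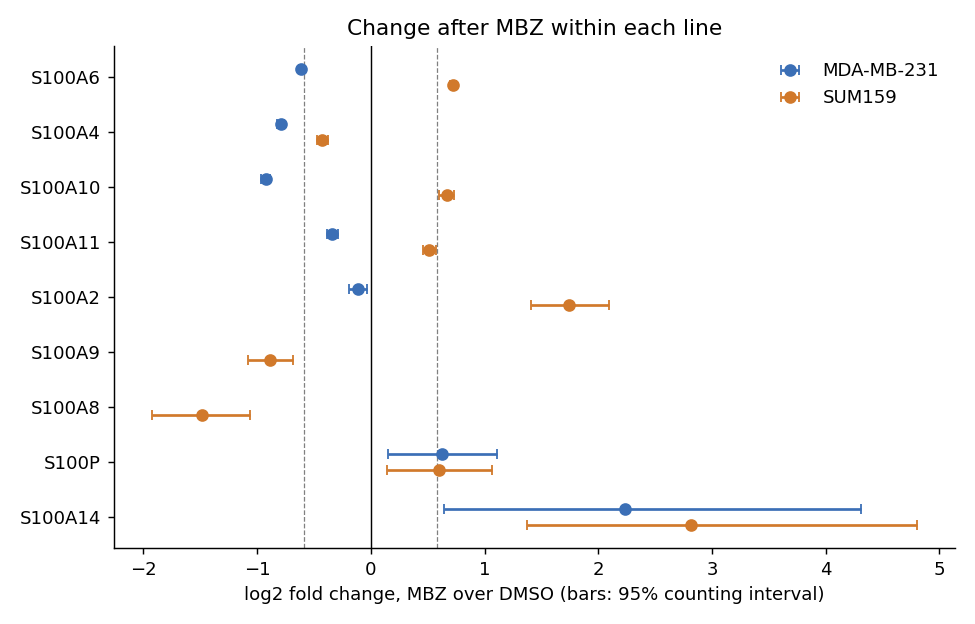
Log2 fold change of each member, MBZ over DMSO, in MDA-MB-231 (blue) and SUM159 (orange), with 95% counting intervals as bars and the 1.5-fold limits as dashed lines. S100A6, S100A10, S100A11 and S100A2 lie on opposite sides of 0 in the 2 lines, S100A14 and S100P lie on the right in both, and S100A7, with at most 7 reads, is not drawn.

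S100A6 and S100A10, members with broad expression, were lower with MBZ in MDA-MB-231 and higher in SUM159, and S100A11 had values of the same signs that stayed under 1.5-fold in both lines. S100A6 (calcyclin, ENSG00000197956, chr1:153534599-153536244, minus strand) had 118983 reads in MDA-MB-231 with DMSO and 64299 with MBZ, and 19764 and 40656 in SUM159. Its log2 fold change was -0.62 (95% interval -0.63 to -0.60) in MDA-MB-231, a level 1.53-fold lower, and 0.72 (0.70 to 0.75) in SUM159, a level 1.65-fold higher. The library with the most S100A6 was thus the DMSO one in MDA-MB-231 and the MBZ one in SUM159. An antisense long noncoding RNA overlaps its locus, and the strand setting of the counting is not given in the sources used here.

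S100A10 (p11, ENSG00000197747, chr1:151982915-151993859, minus strand) is the member whose grip does not need calcium. With annexin A2 it forms a complex that binds plasminogen at the cell surface. S100A10 had 16529 reads in MDA-MB-231 with DMSO and 7207 with MBZ, and 2767 and 5475 in SUM159. The log2 fold change was -0.93 (-0.97 to -0.89) in MDA-MB-231 and 0.67 (0.60 to 0.73) in SUM159, so that S100A10 was 1.90-fold lower in the first line and 1.59-fold higher in the second.

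S100A11 (calgizzarin, ENSG00000163191, chr1:152032506-152047907, minus strand), which binds annexin A1, had 9848 and 6450 reads in MDA-MB-231 and 4189 and 7450 in SUM159. Its log2 fold change was -0.34 (-0.38 to -0.29) and 0.51 (0.46 to 0.57).

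Over all 13733 genes compared in both lines, 3.12% were at least 1.5-fold lower in MDA-MB-231 and higher in SUM159, and 2 of the 7 members compared in both, S100A6 and S100A10, were among them. The log2 fold change in SUM159 minus that in MDA-MB-231 was 1.34 (1.31 to 1.37, Woolf counting interval) for S100A6, 1.59 (1.52 to 1.67) for S100A10 and 0.85 (0.78 to 0.92) for S100A11. These intervals again leave out the variation between cultures, and the differences were not tested. Scaling by library totals kept the direction of all 3 genes in both lines, at -0.35 and 1.03 for S100A6, -0.66 and 0.97 for S100A10 and -0.07 and 0.82 for S100A11. With that scaling S100A6 fell under 1.5-fold in MDA-MB-231, so only S100A10 passed the limit in opposite directions. S100A11 then passed 1.5-fold in SUM159.

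Proliferation transcripts went the same 2 ways. Of 10 such genes, among them MKI67 and the mitotic cyclin CCNB1, 9 were lower in MDA-MB-231 with MBZ (median log2 value -1.09) and 10 were higher in SUM159 (median 2.64). Their summed level was 3145 CPM in MDA-MB-231 with DMSO and 1645 with MBZ, and 283 and 1425 in SUM159. Their part in the S100A6, S100A10 and S100A11 values was not tested.

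The promoters of these 3 genes are shown because their values were below 0 in MDA-MB-231 and above 0 in SUM159. The values of S100A2 had the same signs, and its window is shown further below. Each sequence runs 5′ to 3′ on the minus strand from 250 bases before to 50 after the RefSeq start site on GRCh38.p14. They lie at chr1:153535942-153536241 for S100A6, chr1:151993810-151994109 for S100A10 and chr1:152036955-152037254 for S100A11. Capitals mark GGGCGG, the GC box, and in S100A11 also a match to TTGCNNAA, a C/EBP-type motif, on either strand. In S100A6 the last 2 of its 3 GC boxes overlap.
S100A6: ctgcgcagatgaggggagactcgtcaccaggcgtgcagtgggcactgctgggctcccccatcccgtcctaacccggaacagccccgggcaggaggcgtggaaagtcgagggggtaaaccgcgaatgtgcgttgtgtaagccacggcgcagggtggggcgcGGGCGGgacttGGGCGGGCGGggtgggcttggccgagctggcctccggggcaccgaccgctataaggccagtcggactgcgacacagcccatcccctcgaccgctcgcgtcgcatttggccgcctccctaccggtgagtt
S100A10: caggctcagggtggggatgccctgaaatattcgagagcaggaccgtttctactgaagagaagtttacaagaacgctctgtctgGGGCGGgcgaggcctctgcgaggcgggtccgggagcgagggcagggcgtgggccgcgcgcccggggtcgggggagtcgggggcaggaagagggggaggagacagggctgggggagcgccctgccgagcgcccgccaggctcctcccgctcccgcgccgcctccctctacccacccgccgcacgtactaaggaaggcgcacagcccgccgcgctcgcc
S100A11: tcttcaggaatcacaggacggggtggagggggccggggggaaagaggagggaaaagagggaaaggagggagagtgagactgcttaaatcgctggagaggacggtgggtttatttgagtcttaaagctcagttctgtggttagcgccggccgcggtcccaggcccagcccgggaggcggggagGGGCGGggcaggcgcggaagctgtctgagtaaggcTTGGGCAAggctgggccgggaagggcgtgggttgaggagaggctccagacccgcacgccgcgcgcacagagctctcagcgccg
All 3 windows held the GC box, and none held the TATA box letters TATAAA. The window of S100A2 held neither, so the GC box was not a trait of every member with these signs. Of the 35116 promoter windows of this length in the RefSeq table, 45.0% held GGGCGG and 11.5% held TATAAA, so the GC box is common everywhere. The 3 windows were rich in G and C, at 69.3%, 71.7% and 65.3%. A match of letters is a description of the window and shows no binding.

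S100A4 (metastasin, ENSG00000196154, chr1:153543613-153550136, minus strand) binds the heavy chain of non-muscle myosin IIA and is known for its link to cell motility and metastasis. It had 24998 reads in MDA-MB-231 with DMSO and 11941 with MBZ, and 6360 and 5897 in SUM159. The log2 fold change was -0.79 (-0.82 to -0.76) in MDA-MB-231, a level 1.73-fold lower, and -0.43 (-0.48 to -0.37) in SUM159, under 1.5-fold. S100A4 was therefore the one member compared in both lines whose value was below 0 in each, and with library totals it stayed below 0 at -0.53 and -0.12. The difference in response between the lines, 0.37 (0.31 to 0.43), was the smallest among the 5 members with the most reads in MDA-MB-231.

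S100A4 and S100A6 are close neighbours, with start sites 1552 and 1542 kb from that of S100A10, yet they parted in SUM159. The ratio of S100A6 to S100A4 moved by 0.18 on the log2 scale (0.14 to 0.21) in MDA-MB-231 with MBZ and by 1.15 (1.09 to 1.21) in SUM159. MYH9, which encodes the myosin heavy chain that S100A4 binds, had 44667 and 22274 reads in MDA-MB-231 and 56852 and 55105 in SUM159. The ratio of S100A4 to MYH9 moved by -0.06 (-0.10 to -0.02) in MDA-MB-231 and by -0.06 (-0.12 to -0.01) in SUM159, so both transcripts went down by nearly the same factor within each line.

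S100A2 (ENSG00000196754, chr1:153561108-153567890, minus strand), a largely nuclear member of basal epithelial cells, was mainly a transcript of MDA-MB-231. It had 3076 reads with DMSO and 2356 with MBZ in that line, and 90 and 376 in SUM159. The log2 fold change was -0.11 (-0.19 to -0.03) in MDA-MB-231, where it turned to 0.15 with library totals, and 1.75 (1.41 to 2.09) in SUM159, a level 3.35-fold higher. The gap between the lines narrowed with the drug: S100A2 was 24.4-fold higher in MDA-MB-231 than in SUM159 under DMSO and 6.80-fold higher under MBZ, with log2 ratios of SUM159 to MDA-MB-231 of -4.61 (-4.93 to -4.30) and -2.77 (-2.93 to -2.61). TP63, a transcription factor of basal epithelium, had 123 and 67 reads in MDA-MB-231 and 2131 and 385 in SUM159, so the line with more TP63 had less S100A2.

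The S100A2 promoter window (chr1:153565795-153566094, minus strand, GRCh38.p14) is shown because it alone among the 10 held TGANTCA, the AP-1 motif, in capitals, 52 bases before the start site. The motif was in 7.71% of all windows.
S100A2: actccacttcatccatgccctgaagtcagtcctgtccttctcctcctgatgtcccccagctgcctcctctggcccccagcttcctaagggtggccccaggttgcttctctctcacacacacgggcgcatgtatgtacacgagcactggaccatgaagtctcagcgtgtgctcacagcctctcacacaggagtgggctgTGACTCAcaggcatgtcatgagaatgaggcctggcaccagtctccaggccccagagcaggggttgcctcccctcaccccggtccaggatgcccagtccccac

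S100A8 and S100A9 were found in SUM159 and not in MDA-MB-231, and both were lower with MBZ. Their products pair as calprotectin, which binds zinc and manganese, is abundant in neutrophils and signals through TLR4 and RAGE. S100A8 (ENSG00000143546, chr1:153390032-153391073, minus strand) had 0 reads in both MDA-MB-231 libraries, and 151 with DMSO and 67 with MBZ in SUM159. S100A9 (ENSG00000163220, chr1:153357854-153361023, plus strand) likewise had 0 reads in both MDA-MB-231 libraries, and 523 and 353 in SUM159. At the depth of the MDA-MB-231 libraries, 0 reads allow a level of up to 0.129 CPM with DMSO and 0.158 with MBZ, taking 3 reads as the limit and the scaling over the 4 libraries. Against that limit per library, S100A8 was at least 70.6-fold higher in SUM159 under DMSO and at least 20.6-fold under MBZ, and S100A9 at least 245-fold and 108-fold.

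With MBZ in SUM159, S100A8 was 2.80-fold lower (log2 fold change -1.49, -1.93 to -1.06) and S100A9 1.84-fold lower (-0.88, -1.08 to -0.69). Scaled by library totals, S100A8 was at -1.19 and S100A9 at -0.58, just short of 1.5-fold. The ratio of S100A9 to S100A8, per length, went from 5.39 to 8.19, a log2 change of 0.61 (0.15 to 1.06). S100A8 was thus the more reduced of the pair, by a margin above counting error. S100A12, the calgranulin whose start site lies between theirs on chromosome 1, had 0 reads in all 4 libraries.

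The promoter windows of the pair are shown because the genes were read in the same line and went the same way. They lie at chr1:153391024-153391323 on the minus strand for S100A8 and chr1:153357604-153357903 on the plus strand for S100A9, on GRCh38.p14, each 5′ to 3′. Capitals mark the TATA box TATAAA, which starts 29 bases before the start site in both, and in S100A9 also a GC box read on the other strand.
S100A8: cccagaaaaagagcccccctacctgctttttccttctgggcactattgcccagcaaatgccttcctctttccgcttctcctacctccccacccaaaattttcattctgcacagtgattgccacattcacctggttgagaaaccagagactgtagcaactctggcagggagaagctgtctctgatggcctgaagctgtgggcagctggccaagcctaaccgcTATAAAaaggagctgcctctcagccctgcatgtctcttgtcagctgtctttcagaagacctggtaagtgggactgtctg
S100A9: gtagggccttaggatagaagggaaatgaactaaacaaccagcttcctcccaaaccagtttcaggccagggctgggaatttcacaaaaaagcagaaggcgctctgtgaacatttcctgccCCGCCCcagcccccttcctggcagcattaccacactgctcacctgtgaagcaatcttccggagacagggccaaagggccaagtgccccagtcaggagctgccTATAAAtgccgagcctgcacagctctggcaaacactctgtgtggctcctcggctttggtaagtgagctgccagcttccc
TATAAA was in 5 of the 10 member windows, those of S100A4, S100A7, S100A8, S100A9 and S100P, between 28 and 31 bases before the start site. These 5 genes did not share a pattern: S100A4 was read in both lines, S100A8 and S100A9 in SUM159, and S100P was higher with MBZ in each line.

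Some other transcripts known from leukocytes were also lower with MBZ in SUM159. Of 8 leukocyte and myeloid markers, 5 could be compared in SUM159 and 4 of those were lower, against 21.7% of all genes compared there. The median of the 5 was -2.16 on the log2 scale. The summed level of the 8 markers was 48.5 CPM in SUM159 with DMSO and 12.5 with MBZ, against 3.18 and 5.10 in MDA-MB-231. CD14, a co-receptor for lipopolysaccharide, went from 477 to 110 reads, and PTPRC, the pan-leukocyte phosphatase CD45, from 216 to 60. ELANE, neutrophil elastase, went from 32 to 0 reads and FCGR3B from 25 to 9, whereas ITGAM had 39 and 66. The markers thus did not all go one way, and lysozyme (LYZ) was nearly lacking, at 0 and 4 reads. ELANE and FCGR3B reached the minimum mean through their DMSO library. Their counting as lower was fixed by that filter and lends no support to the count.

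Further myeloid transcripts, chosen after their own values had been seen, were at or near 0 in both SUM159 libraries. TYROBP, AIF1, CYBB, MNDA and FCN1 had 0 reads in each, and SPI1, the transcription factor PU.1, had 0 and 3. Because of that choice, these low counts are examples only and lend no support to any reading of S100A8 and S100A9. The part of other cells in the S100A8 and S100A9 reads was not tested. TLR4, the receptor for the pair, had 1092 reads in SUM159 with DMSO and 376 with MBZ, a log2 fold change of -1.85 (-2.03 to -1.68), and 995 and 1081 in MDA-MB-231.

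**Figure D3:**
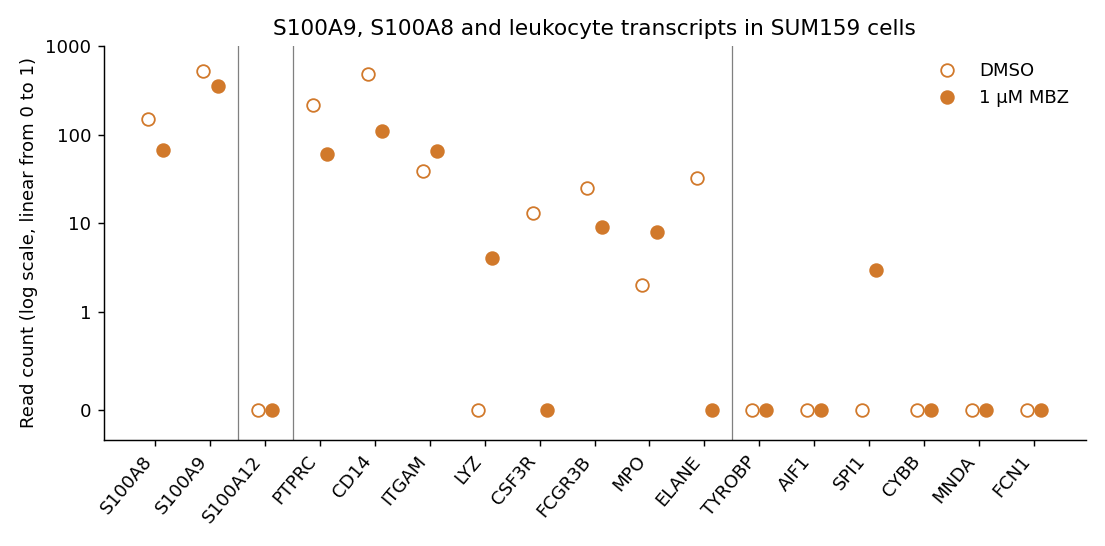
Read counts in the DMSO (open) and MBZ (filled) libraries of SUM159 on a scale that is logarithmic above 1 and linear below it. From the left stand S100A8 and S100A9, S100A12, 8 leukocyte and myeloid markers, and 6 further myeloid genes chosen after seeing the data. S100A8, S100A9, PTPRC and CD14 are lower with MBZ, S100A12 is at 0, and 5 of the last 6 genes have 0 reads in both libraries.

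S100P and S100A14 were higher with MBZ in both lines, from low levels. S100P (ENSG00000163993, chr4:6693878-6697170, plus strand), which lies apart from the other 9 members on chromosome 4, binds ezrin and IQGAP1. It had 68 and 87 reads in MDA-MB-231 and 62 and 117 in SUM159. Its log2 fold change was 0.63 (0.15 to 1.11) in MDA-MB-231 and 0.60 (0.14 to 1.07) in SUM159, a difference of -0.03 (-0.67 to 0.61) between the lines. The levels in the lines also lay close, with a log2 ratio of SUM159 to MDA-MB-231 of 0.36 (-0.16 to 0.87) under DMSO and 0.31 (-0.10 to 0.73) under MBZ.

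S100A14 (ENSG00000189334, chr1:153614255-153616986, minus strand) is an epithelial member that binds calcium weakly. It had 4 and 16 reads in MDA-MB-231, which is just at the minimum of 10 on average, and 4 and 36 in SUM159. It reached the minimum through its MBZ libraries, so its counting as higher in both lines was fixed by that filter and lends no support to the counts of members. The log2 fold change was 2.23 (0.64 to 4.31) in the first line and 2.82 (1.37 to 4.81) in the second. Among all genes compared in both lines, 6.12% were at least 1.5-fold higher in each, and S100P and S100A14 were 2 of the 7 members so compared.

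S100A7 (psoriasin, ENSG00000143556, chr1:153457744-153460651, minus strand), a protein of inflamed epidermis, was close to the limit of detection. It had 0 reads in both MDA-MB-231 libraries, and 1 and 7 in SUM159, a log2 ratio of 2.49 whose interval of -0.47 to 7.99 includes 0. A change was not detectable at this depth. S100A7A, its near copy, and 10 S100 pseudogenes had 0 reads throughout.

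A change shared by the lines was tested with the lines standing in for replicates, so that the spread is the difference in response between them. With edgeR's quasi-likelihood test and Benjamini-Hochberg adjustment over 16100 genes, 0 of the 9 members tested passed an adjusted p of 0.05, and 1, S100A14, did so before adjustment. The 9 include S100A8 and S100A9, which had 0 reads in MDA-MB-231 and so could not show a shared change. S100A14 entered the fit through its MBZ libraries, with 16 and 36 reads against 4 and 4, so its direction was fixed by the filter on low values and its value is not read as a result. Of all genes tested, 0.00621% passed, which is 1 gene. S100A4 had a shared log2 fold change of -0.57 (SE 0.36, edgeR adjusted p = 0.780) and S100P at 0.65 (SE 0.52, edgeR adjusted p = 0.830). S100A6 and S100A10, which went opposite ways, had shared values of 0.09 (SE 0.59) and -0.09 (SE 0.46). DESeq2 also called 0 members, with a smallest adjusted p of 0.866 among those that had one, and it called 0.698% of all genes with an adjusted p. With 2 lines and no replicate within a line, these values leave a wide range of shared changes possible.

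Levels were compared between the lines by edgeR's quasi-likelihood test, with the treatments standing in for replicates, and 21.5% of all genes tested passed. S100A8 and S100A9 entered this fit through their SUM159 reads alone, so their difference was fixed by the filter on low values, and they are described by the bounds above with no test. Of the 7 members with reads in all 4 libraries, 1 passed. S100A2 was lower in SUM159 by a log2 value of -3.62 (SE 0.51, edgeR adjusted p = 0.00438). S100A4 fell just short of the threshold, at -1.26 (SE 0.36, edgeR adjusted p = 0.0505), and S100A6 (-1.39, SE 0.60, edgeR adjusted p = 0.151) and S100A10 (-1.25, SE 0.47, edgeR adjusted p = 0.103) did not pass. DESeq2, which called 19.9% of all genes with an adjusted p, called these 3 members and S100A2, with adjusted p values of 0.00221 for S100A4, 0.0132 for S100A6 and 0.0483 for S100A10. S100A11, S100P and S100A14 passed in neither, with edgeR adjusted p values of 0.625, 0.650 and 0.454. With RLE scaling (relative log expression) in place of TMM, S100A4 passed the edgeR test, at an edgeR adjusted p = 0.0421. That run called 3837 of 16100 genes.

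Taken library by library, the line difference of the abundant members was larger under DMSO than under MBZ. S100A6 was 4.29-fold higher in MDA-MB-231 than in SUM159 under DMSO and 1.72-fold under MBZ. S100A10 was 4.26-fold and 1.43-fold higher in MDA-MB-231, and S100A4 was 2.80-fold and 2.20-fold higher. S100A11 was 1.68-fold higher in MDA-MB-231 under DMSO, and under MBZ its log2 ratio of SUM159 to MDA-MB-231 was 0.09. The summed level of the 10 members was 7465 CPM in MDA-MB-231 and 2047 in SUM159 under DMSO, and 4858 and 2930 under MBZ. These sums mostly follow S100A6.

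**Figure D4:**
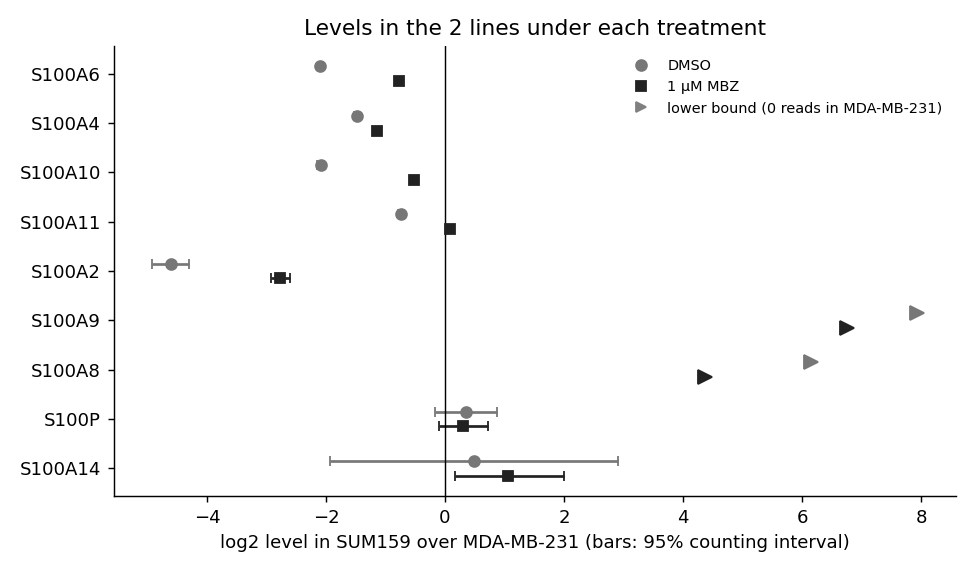
Log2 ratio of the level in SUM159 to that in MDA-MB-231 for 9 members, under DMSO (grey circles) and 1 μM MBZ (black squares), with 95% counting intervals as bars and triangles for lower bounds where MDA-MB-231 had 0 reads. S100A6, S100A4, S100A10 and S100A2 lie left of 0 under both treatments and nearer to it under MBZ, and S100A9 and S100A8 lie right of 0.

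Partners and receptors of the members showed a mixed picture. Of 15 such genes, all with enough reads in both lines, 2 were higher and 5 lower with MBZ in MDA-MB-231 (median log2 fold change -0.10), and 6 were higher and 3 lower in SUM159 (median 0.14). ANXA2, the partner of S100A10, had 66192 and 42782 reads in MDA-MB-231 and 19881 and 37604 in SUM159, with log2 fold changes of -0.36 (-0.37 to -0.34) and 0.60 (0.58 to 0.63). It thus went the same ways as S100A10, and the ratio of S100A10 to ANXA2 moved by -0.57 (-0.61 to -0.52) in MDA-MB-231 and by 0.07 (-0.01 to 0.14) in SUM159. S100A10 was reduced more than its partner in the first line, while in SUM159 the interval of the ratio included 0.

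ANXA1, the partner of S100A11, was higher with MBZ in both lines, from 6533 to 10206 reads in MDA-MB-231 (log2 fold change 0.92) and from 1246 to 4308 in SUM159 (1.47). S100A11 went the other way in MDA-MB-231 and the same way by less in SUM159, and the ratio of S100A11 to ANXA1 moved by -1.25 (-1.32 to -1.19) and -0.96 (-1.07 to -0.85). ALCAM, an adhesion molecule of this list, was the other gene higher in both lines, at 0.62 and 1.01. ANXA11 (-1.02 and -0.62) was lower in both. The largest change in SUM159 was that of TLR4. AGER, which encodes RAGE, had 51 and 45 reads in MDA-MB-231 and 38 and 99 in SUM159, the latter a log2 fold change of 1.06 (0.51 to 1.64). EZR, the ezrin bound by S100P, had 10151 and 6970 reads in MDA-MB-231 and 2714 and 6656 in SUM159, and unlike S100P it went opposite ways in the lines, at -0.27 and 0.98.

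The other 11 S100 genes gave 5 that could be compared in each line. In MDA-MB-231, 0 were higher and 1 was lower, at a median log2 value of -0.38, and in SUM159, 3 were higher and 0 lower, with a median of 0.70. S100A16 followed S100A6 and S100A10, with 13604 and 5997 reads in MDA-MB-231 (-0.91, -0.95 to -0.87) and 3032 and 6153 in SUM159 (0.70, 0.64 to 0.77). S100A13 had 1254 and 792 reads in MDA-MB-231 and 712 and 1145 in SUM159, with log2 fold changes of -0.39 and 0.37, both under 1.5-fold. S100A1, whose exons overlap S100A13 on the other strand, had 22 and 14 reads in MDA-MB-231 and 4 and 42 in SUM159. S100A5 had 217 and 167 in MDA-MB-231 and 3 and 21 in SUM159. S100A1 and S100A5 reached the minimum mean in SUM159 through their MBZ library. Their direction there was fixed by that filter and lends no support to the count or the median. Of the genes called higher in SUM159, only S100A16 was free of this limit. The share of all genes called higher in that line was 21.5%.

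Of the 10 members, 9 lie on chromosome 1, in a stretch that begins with S100A10 and S100A11 and, after a gap of 1321 kb between start sites, continues from S100A9 to S100A14. Signs were counted for S100 genes of chromosome 1 with a mean of at least 10 reads and over 3 per library. This left out S100A5 in SUM159, with 3 and 21 reads. A value below 0 was found for 10 of 11 in MDA-MB-231 and 3 of 12 in SUM159. Scaled by library totals, 8 of 11 and 3 of 12 were below 0. The signs of S100A14 in both lines and of S100A1 in SUM159 were fixed by the filter, through their MBZ libraries. The medians of all genes compared were near 0, at -0.02 in MDA-MB-231 and -0.03 in SUM159. S100A10 and S100A11, with start sites 43.1 kb apart, went the same way in each line. S100A9 and S100A8, at 1364 and 1397 kb from the start site of S100A10, were read only in SUM159, with the silent S100A12 between them. S100A16 and S100A14 start 3.19 kb apart, yet in MDA-MB-231 S100A16 was at -0.91 and S100A14, from 4 and 16 reads, at 2.23.

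**Figure D5:**
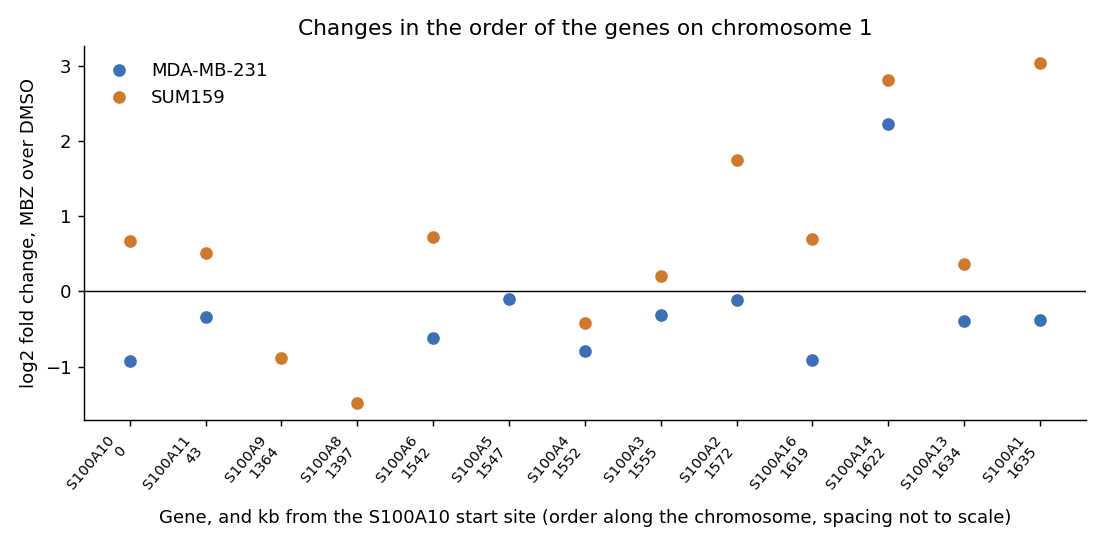
Log2 fold change, MBZ over DMSO, of the S100 genes of chromosome 1 in their order along it, in MDA-MB-231 (blue) and SUM159 (orange), with the distance of each start site from that of S100A10 in kb under the names. Genes with a mean under 10 reads or with 3 or fewer reads in a library are not drawn. In MDA-MB-231 10 of 11 genes lie below 0, all but S100A14, and in SUM159 9 of 12 lie above 0, all but S100A9, S100A8 and S100A4.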

How the data were processed

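RNA was sequenced from 2 cell lines under 2 treatments, with 1 library per condition. The authors deposited raw counts per gene, which HTSeq 0.6.1 made in union mode from STAR 2.5 alignments to GRCh38. The annotation release and strand setting are not given in the sources used here. Coordinates and exon lengths are those of GENCODE release 44, which may differ from theirs, and promoters come from RefSeq (GRCh38.p14), with a window for each of the 10 members. For log2 fold changes, edgeR 4.0.16 (R 4.3.3) was used with TMM over the pair and a prior count of 0.125, and counts of members used 1.5-fold and a mean of 10 counts. The edgeR quasi-likelihood fit used filterByExpr with line and treatment as terms, and DESeq2 1.42.0 was an alternative. The quasi-likelihood test of the shared change and both kinds of counting interval were tested on simulated data. All 10 members are named, marker genes are named as examples, and genes of the other S100, partner and epidermal lists where they passed 1.5-fold in the same direction in both lines or changed most in a line, or are a partner or receptor of a member. S100A5, S100A13, S100B and S100Z were named after their values were seen. The members, lists and the pairs for ratios were chosen with earlier results of these data known. For 1 gene of the partner list, values are not reported here.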

Additional observations from a re-analysis of the deposited data

Results flagged for a closer look

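The log2 fold change after MBZ lay on opposite sides of 0 in the lines for 4 members, below 0 in MDA-MB-231 and above 0 in SUM159. The value in SUM159 minus that in MDA-MB-231 was 1.86 for S100A2, 1.34 for S100A6, 1.59 for S100A10 and 0.85 for S100A11. With 1 library per condition, the difference between the lines was not tested. S100A2 changed sign in MDA-MB-231 when reads were scaled by library totals, while S100A6, S100A10 and S100A11 kept theirs.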

How the results depend on the processing

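With a limit of 2-fold in place of 1.5-fold, 1 member was higher and 0 lower in MDA-MB-231, and 2 were higher and 1 lower in SUM159. With the minimum mean raised to 100 counts, 0 members were higher in MDA-MB-231 and 3 in SUM159. Scaled by library totals, 1 member was lower in each line. The level difference between the lines took in 3 members in the main run. It took in 5 with DESeq2, 6 when every gene with at least 1 count was tested, and 4 with RLE scaling. These counts include S100A9 and, except with DESeq2, S100A8, both at 0 in MDA-MB-231. DESeq2 and the run on every gene called 19.9% and 14.9% of all genes with an adjusted p. The RLE run called 3837 of 16100 genes. The cause was not tested, except that a stricter limit keeps fewer members by construction. The shared change was called for 0 members under every alternative run. Of 64 fold changes of single members under another scaling or prior count, 63 kept their sign and 51 stayed inside their counting interval. The exception was S100A2 in MDA-MB-231 with library totals. The order by level per length held for 38 of 40 ranks with the length of the canonical transcript. The shared test already compares the treatments within each line, and without line as a term it also called 0. Each group has 1 library, so no replicate number could serve for pairing and none could be left out. S100A7 and S100A14, with at most 36 reads in a library, are the members most limited by depth.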

Other observations

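The stretch of chromosome 1 between S100A11 and S100A9 holds genes of the epidermal differentiation complex, which encode proteins of the skin barrier. Of 20 such genes, between 12 and 17 had 0 reads in a library. In MDA-MB-231, 2 had enough reads and both were higher with MBZ, FLG (filaggrin) with 209 and 378 reads and HRNR (hornerin) with 22 and 52. FLG had 10 and 2 reads in SUM159, a log2 ratio of -2.64 (95% counting interval -5.87 to -0.41) from too few reads to be counted. In SUM159, SPRR2D, a small proline-rich protein of the cornified envelope, went from 2 to 83 reads, a log2 ratio of 5.06 (3.16 to 8.13).

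Squamous keratinocyte markers were mixed. Of 8, 3 were compared in MDA-MB-231 (1 higher and 1 lower) and 4 in SUM159 (2 higher and 2 lower). KRT14, a keratin of basal epithelium, had 2 and 27 reads in MDA-MB-231 and 13 and 48 in SUM159. KRT10, a keratin of differentiating epidermis, had 1369 and 1679 reads in MDA-MB-231 and 289 and 1005 in SUM159, and stayed under 1.5-fold in MDA-MB-231. TP63 was lower in MDA-MB-231 (log2 value -0.60) and in SUM159 (-2.78), and KRT5 had 13 and 8 reads in SUM159. KRT14 in MDA-MB-231 reached the minimum mean through its MBZ library, and KRT5 in SUM159 through its DMSO library. Their directions there were fixed by the filter and lend no support to the counts. S100B had 12 reads in SUM159 with DMSO and 0 in the other 3 libraries, and S100Z had 5 in MDA-MB-231 with MBZ and 0 in the others.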
